A study of Rattus norvegicus with 12 samples.

Results

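The genes described here are the targets and partners of the transcription factor ATF4 that make, import and charge amino acids or run the mitochondrial folate cycle, together with the regulators of that program. The list was drawn up because Aldh1l2 and Sesn2 were higher with TonEBP knockdown, and it names 39 genes. Of these, 38 were listed in all 3 deposited tables, among 12899 genes common to them, and Aldh18a1 was not analysed here. They fall into 9 regulators, 7 amino acid synthesis genes, 4 one-carbon enzymes, 5 transporter genes and 13 genes for charging or exporting tRNA.

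The cells were primary nucleus pulposus cells, the cells of the gel core of the intervertebral disc, grown out of spine tissue of Wistar rats and kept in DMEM with serum. All 4 groups carried a lentiviral short hairpin RNA and each had 3 libraries, numbered as sets 1 to 3. The shTon_TNF group carried the hairpin against TonEBP and received 50 ng/mL TNF-a for 24 h. The shTon_CTR group carried the same hairpin and was left untreated. PLKO_TNF cells carried the control hairpin and received the same TNF-a treatment, and PLKO_CTR cells carried the control hairpin without TNF-a. Nfat5 encodes TonEBP, a transcription factor that drives the response to high salt and osmotic pressure. The cells were expanded in culture before transduction, and no untransduced group was analysed. What a set stands for (1 animal, pooled animals or separate cultures) is not stated, so p-values measure only the spread among these libraries.

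ATF4 is the main effector of the integrated stress response, in which phosphorylation of the initiation factor eIF2 slows general translation while the Atf4 message is translated more. Much of its control is therefore on translation, which RNA levels do not show. It binds composite C/EBP-ATF elements in genes for serine, asparagine and proline synthesis, for amino acid carriers, for aminoacyl-tRNA synthetases and for mitochondrial folate enzymes, and it also induces brakes on the response such as Trib3 and Chac1. Disc cells live with little oxygen and few nutrients, and TNF-a is a cytokine of disc degeneration.

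The proximal promoters were searched for the core of that element, TGATGNAA, on both strands, in windows of 300 bases (250 before to 50 after the annotated start) from RefSeq, build GRCr8. Of the 38 genes, 33 had a window, and Eif4ebp1, Aldh1l2, Slc1a5, Gars and Xpot had none. The core was present in 15 of the 33 windows (45.5%) and in 1332 of all 33469 windows (3.98%). The genes were listed as known ATF4 targets and partners, with earlier results of these data known, so this is a description of the list. Matches are in capitals and flanking bases in lower case, 5′ to 3′ on the strand of the gene, in the following stretches of 5 genes that rose with TNF-a in PLKO cells, of Nupr1, which fell, and of the regulators Trib3 and Chac1.
Slc7a1: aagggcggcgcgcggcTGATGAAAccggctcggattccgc
Slc1a4: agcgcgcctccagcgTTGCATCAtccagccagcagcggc
Tars: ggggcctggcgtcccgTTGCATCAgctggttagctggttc
Nars: gctgccctaggtgatcTGATGCAAcgcttc
Iars: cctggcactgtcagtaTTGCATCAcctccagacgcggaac
Nupr1: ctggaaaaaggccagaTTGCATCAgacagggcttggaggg
Trib3: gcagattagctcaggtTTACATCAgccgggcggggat
Chac1: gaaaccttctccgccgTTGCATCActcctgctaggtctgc
The stretches lie at chr12:11664442-11664481 (plus strand, Slc7a1), chr14:98761774-98761812 (minus, Slc1a4), chr2:62114806-62114845 (minus, Tars), chr18:60275783-60275812 (minus, Nars), chr17:15193653-15193692 (minus, Iars), chr1:190645933-190645972 (minus, Nupr1), chr3:161275534-161275570 (minus, Trib3) and chr3:126795948-126795987 (plus, Chac1). All of them end before the annotated start. TTNCATCA is the same core read on the other strand. Both a gene that fell and genes that rose carried the identical 8 letters TTGCATCA. Among genes that rose with TNF-a in PLKO cells, 7 of 11 with a window held the core, and 8 of the other 22 did.

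Libraries held between 7160042 and 18645538 reads on listed genes, and levels are given below as scaled reads, that is, reads divided by one size factor per library over the genes common to the 3 tables. They compare a gene across libraries, not genes with each other. Nfat5, the targeted gene, had 458, 457 and 288 scaled reads in sets 1 to 3 of shTon_CTR, against 685, 1363 and 1818 in PLKO_CTR. With TNF-a it had 1695, 500 and 232 scaled reads in shTon_TNF, against 642, 1092 and 483 in PLKO_TNF. The library labelled shTon_TNF set 1 therefore goes against its label, and calls, group medians and log2 fold changes that rest on it are given with and without set 1. Of 14 markers of nucleus pulposus and notochord, 6 were measured in all tables (Krt8, Car3, Cd24, Pax1, Foxf1 and Lgals3), and their summed level ranged from 3417 to 16497 scaled reads over the 12 libraries. The other markers of that list, Acan, Col2a1 and T among them, were not analysed here. Skeletal muscle genes (11 of 12 measured, Acta1, Myog and Ckm among them) summed to 42817 to 97623 scaled reads over the libraries of set 1, to 16506 to 30039 over those of set 2 and to 171 to 256 over those of set 3. In bulk RNA, fewer cells of a type and less RNA per cell cannot be told apart. Comparisons below were made within sets, on log2(scaled reads + 1), with limma and Benjamini-Hochberg adjustment over all genes tested (two-sided, threshold 0.05).

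The first comparison asked what TNF-a did in cells with the control hairpin. Of the 5 transporter genes 4 rose, as did 7 of the 13 tRNA genes and 2 of the 4 one-carbon enzymes, and the carriers Slc1a5 and Slc7a1 had the largest log2 fold changes of the 38 genes. None of the 7 amino acid synthesis genes passed the test, nor did Atf4 itself. In all, 13 of the 38 genes rose and 1 fell, where 5.15% of 12207 genes tested rose and 4.85% fell. The median log2 fold change was 0.31 over the 38 genes and -0.01 over all genes. By value, 22 of 38 genes were higher in 3 of 3 sets, against 25.6% of all genes, and 7 had all PLKO_TNF libraries above all PLKO_CTR libraries, against 5.97% of all genes. At an unadjusted p under 0.05 there were 21 of 38 genes, against 29.2% of all genes. The 38 include Aldh1l2 and Sesn2, which were chosen partly on the untreated libraries. Their TNF-a values are therefore given as a description, and neither was called with all sets, although Aldh1l2 is among the 21. The whole list was drawn up with earlier results of these data known, and its genes share a program and are not independent of each other.

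Among the 5 transporter genes, 4 rose. Slc1a5, the carrier of glutamine and other neutral amino acids (ASCT2), had 2050, 1991 and 1217 scaled reads in PLKO_TNF, against 736, 509 and 259 in PLKO_CTR. It was higher in every treated library than in any untreated one, by 3.71-fold (log2 fold change 1.89 ± 0.15 SE, n = 3 sets, limma adjusted p = 0.0021). Slc7a1, the carrier of arginine and lysine (CAT1), had 1600, 1401 and 652 scaled reads in PLKO_TNF and 817, 670 and 284 in PLKO_CTR. The groups overlapped because set 3 was low in both, but each set gave about the same rise, 2.11-fold (1.08 ± 0.10, limma adjusted p = 0.0034). Slc1a4, the carrier of serine and alanine (ASCT1), had 1996, 2247 and 3706 scaled reads in PLKO_TNF and 1155, 1529 and 2246 in PLKO_CTR. Here set 3 was the high one and the groups overlapped, with a log2 fold change of 0.69 ± 0.10 (limma adjusted p = 0.0124). For Slc3a2, the heavy chain that brings Slc7a5 and Slc7a11 to the membrane, PLKO_TNF held 5570, 3203 and 2528 scaled reads and PLKO_CTR 4338, 2232 and 1540. It was higher in 3 of 3 sets, with overlapping groups (0.53 ± 0.11, limma adjusted p = 0.0305). Its light chain Slc7a5 (LAT1) was also higher in 3 of 3 sets but did not pass (0.71 ± 0.19, limma adjusted p = 0.0626).

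**Figure D1:**
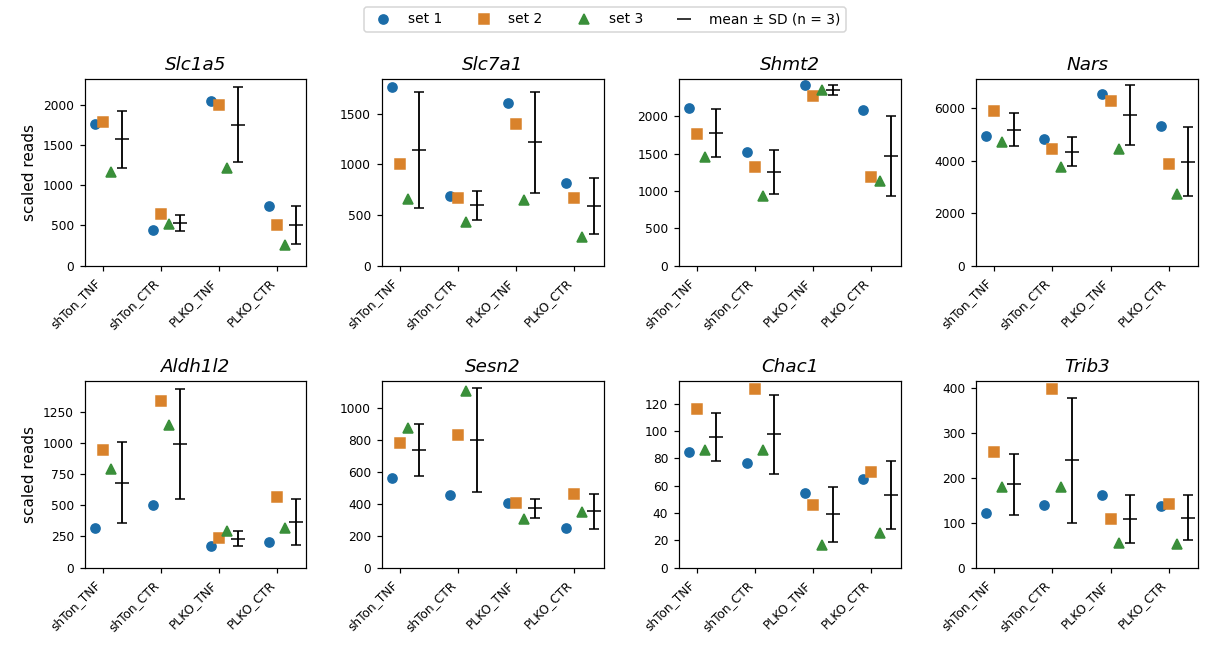
Scaled reads of 8 genes (vertical axes, linear from 0) in each library of the 4 groups; the symbol and colour give the set, and the black mark and bar give mean ± SD of 3 libraries. Slc1a5 lay between 1161 and 2050 in the TNF-a groups and between 259 and 736 in the untreated groups, while Aldh1l2, Sesn2, Chac1 and Trib3 were higher by mean in the knockdown groups.

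Of the 4 mitochondrial one-carbon enzymes, 2 rose. Shmt2, which splits serine to load folate with a one-carbon unit, had 2418, 2276 and 2357 scaled reads in PLKO_TNF, against 2088, 1192 and 1136 in PLKO_CTR. All treated libraries were above all untreated ones, although the rise was small in set 1 (log2 ratios 0.21, 0.93 and 1.05, mean 0.73 ± 0.17, limma adjusted p = 0.0412). Mthfd1l, which releases formate at the end of the mitochondrial pathway, had 1463, 1308 and 1433 scaled reads in PLKO_TNF and 1200, 723 and 1001 in PLKO_CTR. The groups did not overlap (0.55 ± 0.13, limma adjusted p = 0.0418). Mthfd2, the dehydrogenase and cyclohydrolase between those steps, had 1316, 765 and 581 scaled reads in PLKO_TNF and 1150, 595 and 298 in PLKO_CTR. It was higher in 3 of 3 sets without passing the test (0.51 ± 0.16, limma adjusted p = 0.0864). Aldh1l2, the mitochondrial dehydrogenase that oxidises formyl-folate to carbon dioxide, lay the other way by value. It had 173, 237 and 292 scaled reads in PLKO_TNF and 208, 568 and 319 in PLKO_CTR, lower in 3 of 3 sets but mainly in set 2 (log2 fold change -0.55).

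All 13 tRNA genes were higher with TNF-a by value, 11 of them in 3 of 3 sets, and 7 rose. Their log2 fold changes were alike and small, between 0.07 and 0.57 with a median of 0.40. Nars, the asparaginyl-tRNA synthetase, had 6531, 6297 and 4436 scaled reads in PLKO_TNF and 5320, 3871 and 2718 in PLKO_CTR. The treated library of set 3 lay among the untreated ones, so the groups overlapped (0.57 ± 0.12, limma adjusted p = 0.0359). Tars, for threonine, had 3262, 2625 and 3013 scaled reads in PLKO_TNF and 2457, 1863 and 1876 in PLKO_CTR, with no overlap (0.53 ± 0.10, limma adjusted p = 0.0265). Wars, for tryptophan, had 1731, 1751 and 1539 scaled reads in PLKO_TNF and 1438, 1082 and 1056 in PLKO_CTR, again with no overlap (0.50 ± 0.11, limma adjusted p = 0.0396). Wars is also known as a gene induced by interferon.

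Yars, for tyrosine, had 2023, 973 and 871 scaled reads in PLKO_TNF and 1554, 721 and 568 in PLKO_CTR. Set 1 stood high in both groups, which therefore overlapped (0.48 ± 0.10, limma adjusted p = 0.0325). Cars, for cysteine, had 1989, 1530 and 966 scaled reads in PLKO_TNF and 1649, 1016 and 706 in PLKO_CTR, which overlapped as well (0.44 ± 0.10, limma adjusted p = 0.0448). Iars, for isoleucine, and Xpot, the exportin that carries tRNA out of the nucleus, were close to the threshold at limma adjusted p = 0.0486 and 0.0456. Aars, Eprs, Gars, Lars, Mars and Sars did not pass, and of these Mars came nearest (0.40 ± 0.11, limma adjusted p = 0.0662).

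None of the 7 amino acid synthesis genes passed the test. With limma 1 of them, Psph, had an unadjusted p under 0.05. Neither edgeR nor DESeq2 called any of the 7 (0 and 0). They called 9.81% and 10.4% of all genes, so for 7 genes a count of 0 is near those shares. Asns, which makes asparagine and is a classical ATF4 target, had 1276, 1351 and 1142 scaled reads in PLKO_TNF and 1290, 1177 and 872 in PLKO_CTR. The groups overlapped and the log2 ratio in set 1 was -0.01 (0.19 ± 0.11, limma adjusted p = 0.292). The serine pathway enzymes differed by value: Phgdh, the first, had a log2 fold change of -0.21, while Psat1 and Psph, which follow it, had 0.49 and 0.46. Pycr1 (proline), Got1 (aspartate) and Pck2 (mitochondrial phosphoenolpyruvate) lay between -0.04 and 0.07.

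Among the 9 regulators, Nupr1 fell and none rose. Nupr1, a small chromatin protein of the stress response, had 95.7, 168 and 232 scaled reads in PLKO_TNF, against 131, 493 and 522 in PLKO_CTR. It was lower in 3 of 3 sets, with 1 untreated library (set 1) inside the treated range (-1.05 ± 0.21, limma adjusted p = 0.0303). Atf4 had 8305, 7142 and 4747 scaled reads in PLKO_TNF and 6930, 5943 and 3384 in PLKO_CTR. It was higher in 3 of 3 sets but overlapped (0.34 ± 0.11, limma adjusted p = 0.096). Ddit3 (CHOP), the pro-apoptotic factor downstream of ATF4, had 394, 386 and 183 scaled reads in PLKO_TNF and 450, 419 and 199 in PLKO_CTR, a small difference (-0.14 ± 0.11, limma adjusted p = 0.436). Trib3, the pseudokinase that feeds back on ATF4, had 162, 108 and 54.5 scaled reads in PLKO_TNF and 137, 143 and 53.1 in PLKO_CTR, with sets in both directions (limma adjusted p = 0.91).

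Chac1, which degrades glutathione, had 55, 45.9 and 16.5 scaled reads in PLKO_TNF and 64.7, 70.3 and 25 in PLKO_CTR. It was lower in 3 of 3 sets without passing (-0.47 ± 0.23, limma adjusted p = 0.218), and it was among the thinnest members, with as few as 13 reads in a library. Sesn2, the leucine sensor that restrains mTORC1, had 406, 408 and 303 scaled reads in PLKO_TNF and 248, 464 and 347 in PLKO_CTR, higher in set 1 and lower in the other sets. Atf5, Ddit4 and Eif4ebp1, the 4E-BP1 brake on translation, had log2 fold changes of -0.26, -0.47 and 0.07 and did not pass.

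**Figure D2:**
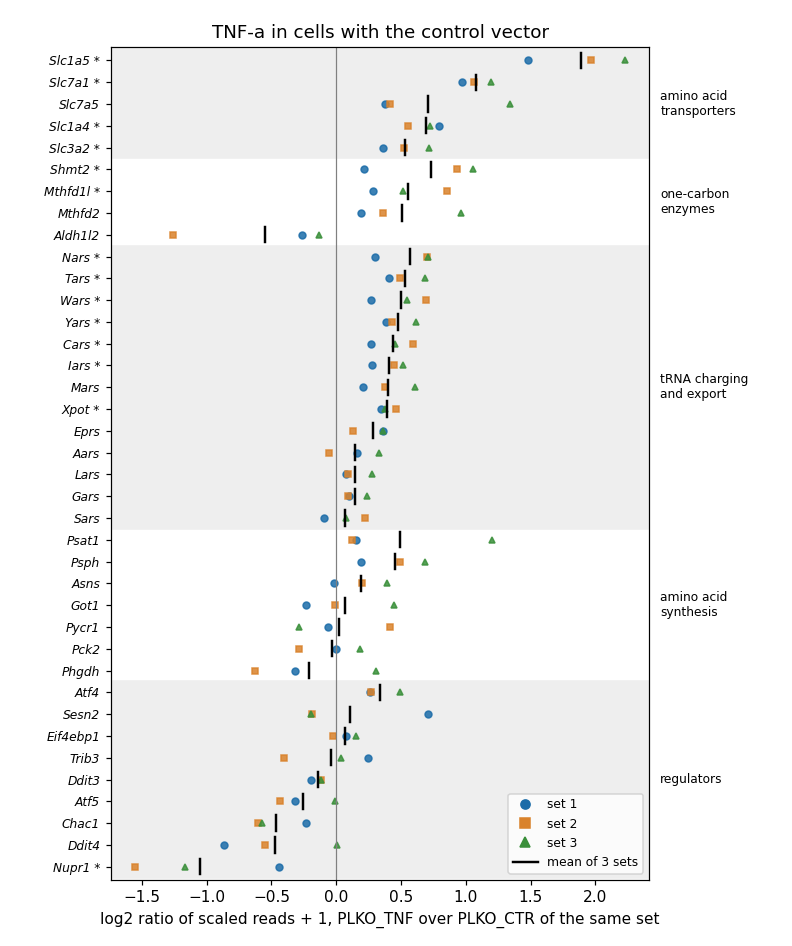
Log2 ratio of scaled reads + 1 of PLKO_TNF over PLKO_CTR within each set (symbols) and the mean of the 3 sets (black bar) for the 38 genes, grouped by role; an asterisk marks the 14 genes that passed the test. All 5 transporter genes and all 13 tRNA genes have a positive mean, and 6 of 9 regulators have a negative one.

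The calls for the carriers Slc1a5 and Slc7a1 were kept under every setting that took the sets into account. Slc1a4 was called with any set left out, but not with all 12 libraries in the fit or without the mean-variance trend. Most other calls depended on a set: without set 2, 4 of the 14 genes were still called (Slc7a1, Slc1a4, Slc1a5 and Tars). Counting new calls too, 5 of the 38 genes were called, where 6.12% of all genes were. Without set 3, 5 of the 14 were still called (Nupr1, Mthfd1l, Slc7a1, Slc1a4 and Slc1a5). No other member was called apart from Aldh1l2, where 8.03% of all genes were called. Aldh1l2 was lower in that fit (-0.76) and is not counted, since the untreated libraries helped to choose it. In a fit that ignored the sets, no gene among all 12207 passed. In the authors' deposited table, which gives its own fold changes and adjusted p-values, 11 of the 38 genes rose and 1 fell, where 5.06% and 4.95% of its 13373 genes did. That table called Slc7a5 and did not call Cars, Iars or Xpot. The nucleus pulposus markers moved in the same comparison: they summed to between 3417 and 8529 scaled reads in PLKO_TNF and between 7351 and 12655 in PLKO_CTR, and 3 of the 6 fell (Krt8 -1.10, Pax1 -1.45 and Lgals3 -0.97, log2). The muscle genes summed to between 171 and 42817 scaled reads in PLKO_TNF and between 190 and 54276 in PLKO_CTR, with 1 of 11 called (Myod1 fell by 1.47). The part of either list in the results was not tested.

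Related genes outside the list were followed in the same comparison. Among 18 further ATF4 or stress response targets, 3 rose and 2 fell, with a median log2 fold change of -0.16. Gdf15, a stress-induced cytokine, rose (2.92, limma adjusted p = 0.0052), as did Slc7a11, the cystine carrier that pairs with Slc3a2 (2.15, limma adjusted p = 0.0153), and Ppp1r15a (0.78), while Vldlr (-0.85) and Slc38a1 (-0.59) fell. Of 17 other folate genes, Mthfd2l (0.95), the mitochondrial folate carrier Slc25a32 (0.72) and Fpgs (0.60) rose and none fell. The 7 other cytosolic synthetases were all higher by value in 3 of 3 sets, with Vars (0.50) called. Of 16 mitochondrial synthetases, 0 were called by limma, by edgeR or by DESeq2, with 2 below 0.05 before adjustment (limma) and a median of 0.07. Ass1, which makes argininosuccinate on the way to arginine, rose by 3.15 (log2) among 9 other proline, glutamate and aspartate genes. Sesn1 (-0.61) and Sesn3 (-1.19), relatives of Sesn2, fell, and Eif2s1 (0.51), a subunit of eIF2, was the 1 gene of 13 eIF2 kinases and partners that rose.

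The second comparison asked what TNF-a did in cells with the TonEBP hairpin. It shares no library with the first, but both use the same 3 sets. Libraries of a set deviated together, so the second comparison is not independent of the first. Slc1a5 was the 1 gene of 38 that rose, and none fell, where 1.95% of 12339 genes rose and 1.33% fell. At an unadjusted p under 0.05 there were 10 of 38, against 18.8% of all genes. The 10 include Aldh1l2, which counts as a description only, since the shTon_CTR libraries helped to choose it. Slc1a5 had 1764, 1786 and 1161 scaled reads in shTon_TNF, against 443, 638 and 519 in shTon_CTR. Treated and untreated libraries did not overlap (1.54 ± 0.17, limma adjusted p = 0.0075). Without set 1 the rise was smaller, at 1.32 ± 0.17, and was called (limma adjusted p = 1.98e-06). Slc7a1 had 1766, 1000 and 654 scaled reads in shTon_TNF and 689, 667 and 427 in shTon_CTR. It was higher in 3 of 3 sets and just missed the threshold with all sets (0.85 ± 0.18, limma adjusted p = 0.0544). Without set 1 its rise was smaller, at 0.60 ± 0.17, yet it passed (limma adjusted p = 0.0256). Nupr1 had 75.8, 163 and 75.7 scaled reads in shTon_TNF and 118, 273 and 122 in shTon_CTR. It was lower in 3 of 3 sets (-0.69 ± 0.17, limma adjusted p = 0.0802). Without set 1 it passed at -0.71 ± 0.22 (limma adjusted p = 0.0382). Without set 1, then, 3 of the 38 genes were called, where 9.05% of all genes were. That fit held fewer libraries and called 1105 genes, against 405 with all sets. Its lower adjusted p-values for Slc1a5, Slc7a1 and Nupr1 should not be read as stronger evidence. With only the library labelled shTon_TNF set 1 left out and all other libraries in the fit, Slc1a5 alone was called (1.56, limma adjusted p = 0.0212), where 2.43% of all genes were. The median over the 38 genes was 0.12 with all sets and 0.13 without set 1.

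By value 3 of the 4 one-carbon enzymes were higher and Aldh1l2 was lower. Shmt2 had 2109, 1757 and 1457 scaled reads in shTon_TNF and 1515, 1324 and 938 in shTon_CTR, and Mthfd1l had 1308, 1202 and 992 in shTon_TNF and 919, 878 and 834 in shTon_CTR. Both were higher in 3 of 3 sets, and neither passed (0.51, limma adjusted p = 0.076, and 0.40, limma adjusted p = 0.145). Without set 1 the values were 0.52 and 0.35, and neither passed. Mthfd2 had 928, 606 and 568 scaled reads in shTon_TNF and 980, 602 and 298 in shTon_CTR, with a difference mainly in set 3. Aldh1l2 had 315, 946 and 790 scaled reads in shTon_TNF and 499, 1341 and 1144 in shTon_CTR. It was lower in 3 of 3 sets (-0.57, and -0.52 without set 1). This is a description, since the shTon_CTR libraries helped to choose the gene.

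The 13 tRNA genes had a median log2 fold change of 0.07, with 8 of 13 higher by value. Without set 1 the median was 0.01, with 7 of 13 higher and 0 called by limma. By limma 0 were called, with 1 below 0.05 before adjustment. The count tests edgeR and DESeq2 called 0 of them too. They called 3.19% and 4.8% of all genes, so for 13 genes a count of 0 is near those shares. Nars had 4963, 5914 and 4701 scaled reads in shTon_TNF and 4845, 4445 and 3765 in shTon_CTR, and Tars had 2609, 2707 and 2869 in shTon_TNF and 2558, 2377 and 2581 in shTon_CTR. Wars had 1507, 1425 and 1667 scaled reads in shTon_TNF and 1273, 1238 and 1471 in shTon_CTR. These 3 genes were higher in 3 of 3 sets by small amounts, with log2 fold changes of 0.26, 0.12 and 0.21 (0.37, 0.17 and 0.19 without set 1). Yars had 1663, 939 and 1384 scaled reads in shTon_TNF and 1617, 819 and 984 in shTon_CTR, and Cars had 1952, 1886 and 1768 in shTon_TNF and 1758, 1463 and 1252 in shTon_CTR. Cars alone among the 13 had an unadjusted p under 0.05 (0.34, limma adjusted p = 0.219), and it did not pass without set 1 (0.43).

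Slc3a2 had 3421, 2671 and 2029 scaled reads in shTon_TNF and 3106, 2323 and 2017 in shTon_CTR, a difference of 0.12. Slc1a4 had 1857, 2016 and 2303 scaled reads in shTon_TNF and 1022, 1810 and 3511 in shTon_CTR, so set 1 was higher with TNF-a and set 3 lower. Asns had 1390, 1183 and 749 scaled reads in shTon_TNF and 1142, 1239 and 549 in shTon_CTR. Among these 3 genes the adjusted p was between 0.454 and 0.822 (limma). Without set 1 their log2 fold changes were 0.10, -0.23 and 0.19, so that of Slc1a4 changed sign. Atf4 had 5819, 6738 and 6489 scaled reads in shTon_TNF and 5959, 6988 and 4179 in shTon_CTR, with a difference mainly in set 3. Ddit3 had 269, 458 and 495 scaled reads in shTon_TNF and 371, 595 and 776 in shTon_CTR, lower in 3 of 3 sets (-0.50 ± 0.13, limma adjusted p = 0.103; without set 1, -0.51 and 0.0694). Outside the list, Slc7a11 (1.05) and Ass1 (3.30) rose, and both passed without set 1 (0.94 and 3.06). Nucleus pulposus markers summed to between 4332 and 10593 scaled reads in shTon_TNF and between 6709 and 16497 in shTon_CTR, with Krt8 (-0.83) and Lgals3 (-0.76) called of 6. Muscle genes summed to between 254 and 81193 in shTon_TNF and between 256 and 97623 in shTon_CTR, with Myod1 (-1.21) called of 11. Without set 1, 4 of the 6 and 3 of the 11 were called, where 9.05% of all genes were. The part of these lists was not tested.

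**Figure D3:**
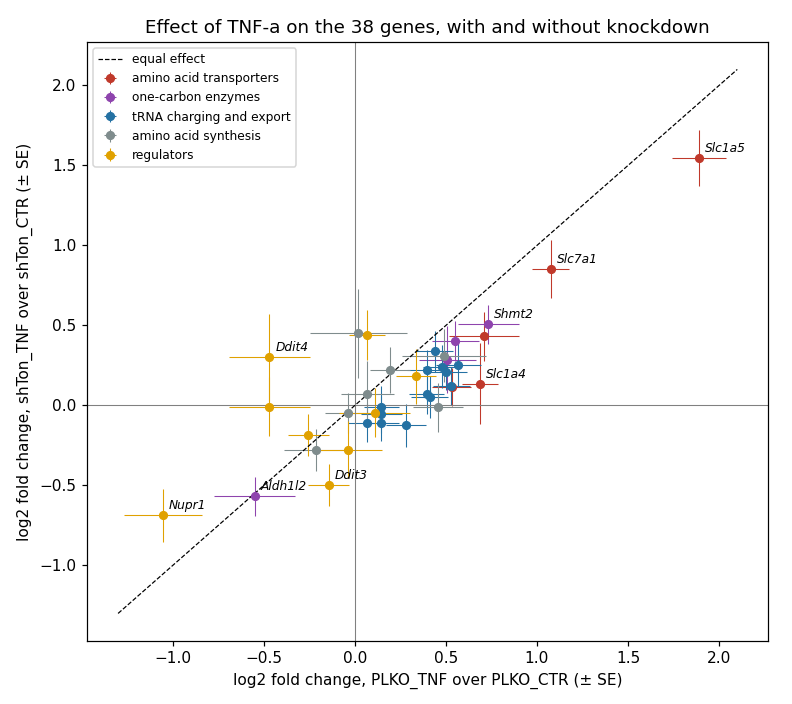
Log2 fold change with TNF-a of the 38 genes in PLKO cells (horizontal axis) and in shTon cells (vertical axis), with bars for 1 SE in each direction, coloured by role; the dashed line marks equal effects. Slc1a5 and Slc7a1 lie at the upper right, at 1.89 and 1.08 in PLKO cells and 1.54 and 0.85 in shTon cells, and all tRNA genes lie below the dashed line.

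Whether knockdown changed the effect of TNF-a was tested as the interaction in one fit over the 12 libraries. No member passed: 0 of 36 genes tested and 0 of all 12310 genes, 0.0% in either direction (limma, with 0 by edgeR and by DESeq2 too), with 2 of the 36 at an unadjusted p under 0.05, where 1.78% of all genes were. Aldh1l2 and Sesn2 were left untested here and in the next comparison because they decided the list. By value the interaction was negative for 30 of 38 genes (median -0.19; all genes 0.00), and in 3 of 3 sets for 16, where 15.7% of all genes were negative in 3 of 3 sets. All 13 tRNA genes were negative, 11 of them in 3 of 3 sets. This was not particular to them: all 7 other cytosolic synthetases were negative (median -0.16), 4 of them in 3 of 3 sets. So were 11 of 13 eIF2 kinases and partners (median -0.18), while 8 of 16 mitochondrial synthetases were (median -0.01). Without set 1 the interaction was negative for 29 of 38 genes (median -0.20) and for all 13 tRNA genes, and 0 genes passed. The lowest unadjusted p among them belonged to Eprs and Tars, each with an interaction of -0.41 ± 0.17 (limma adjusted p = 0.999 for both). In simulated libraries of this size the interaction test found 23.5% of 2-fold and 91.2% of 4-fold changes, so effects of the size seen here would mostly not be called.

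The third comparison asked what TonEBP knockdown did in the presence of TNF-a, and it shares the PLKO_TNF libraries with the first comparison and the shTon_TNF libraries with the second. No gene passed among the 36 tested with limma (0 of 36), where 0.114% of 12244 genes rose and 0.139% fell. Before adjustment 8 of the 36 lay below 0.05, as did 17.0% of all genes. By edgeR 0 of the 36 were called, against 0.222% of all genes, and by DESeq2 2 were, against 2.84%. By value 6 of 9 regulators, Sesn2 among them, were higher with knockdown, and all 5 transporter genes, 11 of 13 tRNA genes and 3 of 4 one-carbon enzymes were lower. Of all genes, 6365 were higher and 5879 lower by value. The median over the 38 genes was -0.10, and over all genes 0.02. Without set 1 the median of the 38 was -0.01, with 7 of 9 regulators higher, and all 5 transporter genes, 9 of 13 tRNA genes and 3 of 4 one-carbon enzymes lower. In 3 of 3 sets, 6 genes were higher and 13 lower, where 20.1% of all genes were in either direction.

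Aldh1l2 and Sesn2, which the list was built on, are given as a description. Aldh1l2 had 315, 946 and 790 scaled reads in shTon_TNF, against 173, 237 and 292 in PLKO_TNF, and each knockdown library was above all control libraries (log2 ratios 0.86, 1.99 and 1.44). Sesn2 had 560, 782 and 878 scaled reads in shTon_TNF, against 406, 408 and 303 in PLKO_TNF, again without overlap (0.46, 0.94 and 1.53). In both genes the ratio was smallest in set 1, where Nfat5 was higher in the knockdown library, and whether these go together was not tested.

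Chac1 had 84.3, 116 and 86.3 scaled reads in shTon_TNF, against 55, 45.9 and 16.5 in PLKO_TNF. The groups did not overlap (1.42 ± 0.35, limma adjusted p = 0.125), and without set 1 the gene passed (1.82, limma adjusted p = 0.0038). Trib3 had 122, 257 and 179 scaled reads in shTon_TNF and 162, 108 and 54.5 in PLKO_TNF, lower in set 1 and higher in the other sets (0.84 ± 0.38, limma adjusted p = 0.307). It also passed without set 1 (1.47, limma adjusted p = 0.0025). Those 2 genes were the members called without set 1, where 5.31% of all genes were called. With only the library labelled shTon_TNF set 1 left out and all other libraries in the fit, 0 of the 36 were called, where 2.41% of all genes were. Ddit4 (REDD1), an inhibitor of mTORC1, was higher in 3 of 3 sets (1.09 ± 0.26, limma adjusted p = 0.118; without set 1, 0.84 and 0.109), and DESeq2 called it and Chac1 (adjusted p = 0.0472 and 0.0453). Ddit3 had 269, 458 and 495 scaled reads in shTon_TNF and 394, 386 and 183 in PLKO_TNF, with set 1 in the opposite direction to the others (0.38, limma adjusted p = 0.597; without set 1, 0.84 and 0.0563). The authors' deposited table called 4 of the 38 genes in this comparison, Aldh1l2, Chac1, Ddit4 and Sesn2, all higher, where 1.29% of its 13176 genes were higher and 1.53% lower.

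Differences on the other side were smaller. Shmt2 had 2109, 1757 and 1457 scaled reads in shTon_TNF and 2418, 2276 and 2357 in PLKO_TNF, with every knockdown library below every control library (-0.42 ± 0.17, limma adjusted p = 0.258; without set 1, -0.53 and 0.192). Slc3a2, Iars and Aars were also lower in 3 of 3 sets, with log2 fold changes of -0.43, -0.48 and -0.53 and limma adjusted p between 0.221 and 0.258. Without set 1 these were -0.29, -0.52 and -0.62, and none passed. Slc1a5 and Slc7a1 had log2 fold changes of -0.15 and -0.11 (-0.11 and -0.24 without set 1). Atf4 had 5819, 6738 and 6489 scaled reads in shTon_TNF and 8305, 7142 and 4747 in PLKO_TNF, lower in sets 1 and 2 and higher in set 3 (-0.05 ± 0.22, and 0.18 without set 1). Asns and Mthfd2 had log2 fold changes of -0.23 and -0.29 (-0.40 and -0.18 without set 1) and did not pass.

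Outside the list, 7 of 18 further ATF4 or stress response targets were higher by value and 11 lower (median -0.09). Of these, Slc7a11 alone was called by limma, and it fell. It had 10054, 1730 and 145 scaled reads in shTon_TNF, against 20344, 6764 and 498 in PLKO_TNF, lower in 3 of 3 sets although the sets differ widely in level (-1.58 ± 0.21, limma adjusted p = 0.0356; without set 1, -1.87 and 1.52e-06). Its partner Slc3a2 showed the smaller difference given above. The lower adjusted p of Slc7a11 without set 1 comes from a separate fit with fewer libraries and should not be read as stronger evidence. The nucleus pulposus and muscle ranges of shTon_TNF and PLKO_TNF, given with the TNF-a comparisons, overlapped, and limma, edgeR and DESeq2 each called 0 of these 17 markers with all sets (with limma, 1 lay below 0.05 before adjustment). Without set 1, limma called 2 of the 11 muscle genes, Acta1 (-1.27) and Mylpf (1.44), and without set 2 it also called 2. Of all genes it called 5.31% without set 1 and 1.5% without set 2. Of 8 macrophage and leukocyte markers 2 were measured, Cd68 (-1.33) and Cd14 (1.27), both below 0.05 before adjustment with limma. With all sets limma and edgeR called 0 of these 2 and DESeq2 called 1. Without set 1, and without set 2, limma called 1. The authors' deposited table called Cd14 as higher (1.04). The part of these lists in the results was not tested.

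**Figure D4:**
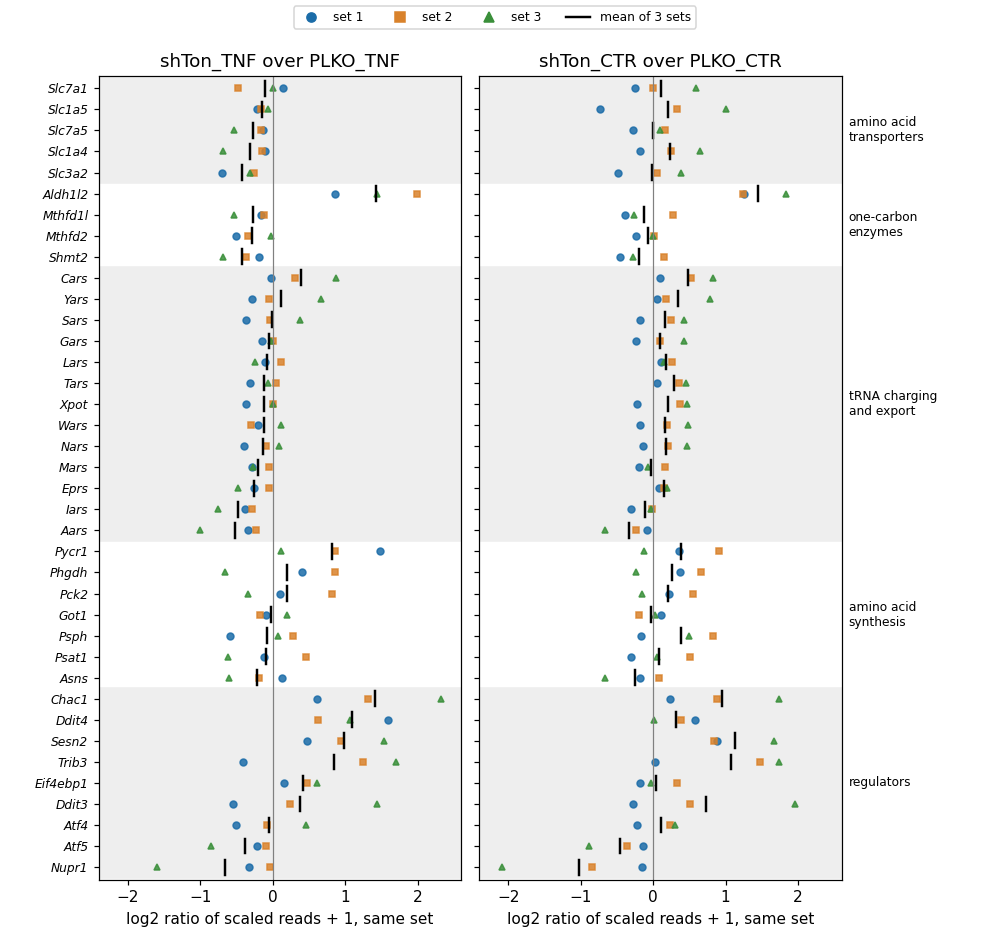
Log2 ratio of scaled reads + 1 within each set (symbols) and its mean (black bar) for the 38 genes, shTon_TNF over PLKO_TNF on the left and shTon_CTR over PLKO_CTR on the right, grouped by role. Aldh1l2, Sesn2 and Chac1 lie to the right of 0 in 3 of 3 sets in both panels, and Trib3 does so in 2 of 3 sets on the left.

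Knockdown without TNF-a is taken as the comparison the list came from, so it is described without a test. It shares the shTon_CTR libraries with the second comparison and the PLKO_CTR libraries with the first. Aldh1l2 had 499, 1341 and 1144 scaled reads in shTon_CTR, against 208, 568 and 319 in PLKO_CTR. Each set was higher with knockdown (log2 ratios 1.26, 1.24 and 1.84), though the lowest knockdown library lay below the highest control library. Sesn2 had 458, 832 and 1109 scaled reads in shTon_CTR, against 248, 464 and 347 in PLKO_CTR (0.88, 0.84 and 1.67), with set 1 of the knockdown just under set 2 of the control. The other 3 mitochondrial one-carbon enzymes did not share the rise of Aldh1l2 by value. Shmt2, Mthfd1l and Mthfd2 had mean log2 ratios of -0.20, -0.12 and -0.07, and Mthfd2 had 980, 602 and 298 scaled reads in shTon_CTR, against 1150, 595 and 298 in PLKO_CTR.

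The stress response regulators differed in size between sets. Chac1 had 76.3, 131 and 85.9 scaled reads in shTon_CTR, against 64.7, 70.3 and 25 in PLKO_CTR. Trib3 had 139, 398 and 180 scaled reads in shTon_CTR, against 137, 143 and 53.1 in PLKO_CTR. Ddit3 had 371, 595 and 776 scaled reads in shTon_CTR, against 450, 419 and 199 in PLKO_CTR. For all 3 genes the log2 ratio was lowest in set 1 (0.24 for Chac1, 0.03 for Trib3 and -0.28 for Ddit3) and highest in set 3 (1.74, 1.74 and 1.96). Nfat5 was lower with knockdown by 0.58 in set 1, 1.57 in set 2 and 2.66 in set 3 on the log2 scale. Part of that order lies in PLKO_CTR, where Nfat5 rose from set 1 to set 3. With 3 sets this parallel is a description only. The ratios of Aldh1l2 and Sesn2, given above, were not lowest in set 1. The summed muscle genes also ran in the order of the sets, from high in set 1 to low in set 3. The cause of the parallel was not tested. Nupr1 had 118, 273 and 122 scaled reads in shTon_CTR, against 131, 493 and 522 in PLKO_CTR, lower in 3 of 3 sets and most in set 3 (-2.08). Atf4 RNA differed little, with 5959, 6988 and 4179 scaled reads in shTon_CTR, against 6930, 5943 and 3384 in PLKO_CTR (log2 ratios -0.22, 0.23 and 0.30). Asns had 1142, 1239 and 549 scaled reads in shTon_CTR, against 1290, 1177 and 872 in PLKO_CTR, lower in sets 1 and 3.

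Over the whole list the median log2 ratio without TNF-a was 0.16, and 0.01 over all genes. It was 0.27 without set 1, 0.12 without set 2 and 0.03 without set 3. In 3 of 3 sets, 10 of 38 genes were higher and 4 lower, where 21.2% and 19.7% of all genes were. Aldh1l2 and Sesn2 had the largest mean ratios of the 38, being the genes the list was built on, and the next were Trib3 (1.08), Chac1 (0.95) and Ddit3 (0.73). Of 19 further ATF4 or stress response targets outside the list, 8 were higher and 11 lower by value (median -0.04). The transporter genes lay between -0.01 and 0.24 and the tRNA genes between -0.33 and 0.48. Of the muscle genes, 10 of 11 were higher with knockdown by value, 6 of them in 3 of 3 sets (summed 256 to 97623 scaled reads in shTon_CTR and 190 to 54276 in PLKO_CTR), and their part was not tested.

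The sets themselves also differed. With the group in the model, 21 of the 38 genes differed among sets (55.3%, limma F test), where 45.4% of 12310 genes did. Set 1 was the highest for 26 of the 38 genes (68.4%), and for 38.3% of all genes. For Slc7a5 the 4 libraries of set 1 averaged 1748 ± 337 scaled reads (SD), those of set 2 averaged 948 ± 113, and those of set 3 averaged 499 ± 224, a 3.50-fold span. Mthfd2 averaged 1094 ± 176, 642 ± 82.3 and 436 ± 160 scaled reads over the same libraries. Slc1a4 had the opposite order, at 1507 ± 490, 1900 ± 305 and 2942 ± 775 scaled reads. The summed muscle genes given above were also highest in set 1 and lowest in set 3, and their part in these differences was not tested.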

How the data were processed

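The authors deposited normalised counts per gene (a signal in which reads are divided by a size factor per table), log2 fold changes and p-values with adjusted p-values in 3 tables of 2 groups each. The deposited normalised values were, per the file headers, not raw counts. The submitters' processing notes name Novoalign 2.08.01, DESeq2 and the build rn5; no source used here states whether counting used strand or kept multi-mapping reads, so overlapping, antisense and near-identical genes cannot be separated. The deposited values were whole multiples of 1 read for 100.0% of values (tolerance 0.001 read), so reads were recovered and rescaled over the 12899 common genes. All value columns were mapped to samples.

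Differences were tested with limma 3.58.1 (R 4.3.3) with a mean-variance trend on log2(scaled reads + 1), which understates the change of low genes, for genes with a mean of at least 10 scaled reads. All 38 genes passed. The set was a block: same-set libraries deviated together (correlation 0.609 to 0.889 over 18 pairs, against -0.741 to 0.180 over 36 pairs of different sets), as the set numbers in the titles pair them. edgeR 4.0.16 and DESeq2 1.42.0 on the recovered reads were alternatives, as were the deposited scale, a pseudocount of 0.1, no filter, no trend, no block, all libraries in the fit and each set left out. Each limma fit draws part of its spread estimate from all genes in its own libraries, so adjusted p-values of different fits are not directly comparable. On simulated data for TNF-a in PLKO cells, the fit recovered 74.1% of 2-fold and 96.6% of 4-fold changes. In both simulations the changes were placed only in genes well above the filter of 10 scaled reads. The test among sets was added to the fixed design. Depth limits precision mainly for Chac1 and Pycr1.

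The members and the related lists were chosen with earlier results of these data known. Values in every library are given for Aldh1l2, Sesn2, Atf4, Asns, Mthfd2, Trib3, Ddit3, Chac1 and the called members (the 12 with the smallest adjusted p where more were called). Of related lists, called genes are named, at most 4 a list. Of the 5 called stress response targets, Slc38a1 was named in addition, after its values were seen. Figures were drawn with matplotlib 3.10.9.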

Additional observations from a re-analysis of the deposited data

How the results depend on the processing

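For TNF-a in PLKO cells, 14 members and 1221 genes were called. Without the replicate block, which drops the pairing by set, 0 members and 0 genes were called; a fit over all 12 libraries gave 4 and 696, and dropping the mean-variance trend gave 2 and 122. Leaving out a set gave 5 to 14 members and 746 to 1563 genes. For TNF-a in shTon cells (1 member, 405 genes), no block gave 0 and 6, all libraries 2 members, no trend 143 genes, DESeq2 2 and 619, and leaving out a set 1 to 3 members and 317 to 1105 genes. For knockdown with TNF-a (0 members, 31 genes), no block gave 0 members and 0 genes, all libraries 1 and 444, a pseudocount of 0.1 12 genes, no trend 0 genes, DESeq2 2 and 366, and leaving out a set 0 to 2 members and 99 to 643 genes. Leaving out only the library labelled shTon_TNF set 1, an alternative added after seeing the data, gave 0 members and 296 genes, and 1 member for TNF-a in shTon cells. The interaction stayed at 0 members and 0 genes under every alternative run. None of the called members, nor Aldh1l2 and Sesn2 without TNF-a, changed sign under any alternative run, and the deposited scale and the absent filter changed no call among the 14. The cause of these differences was not tested, except that leaving out a set leaves fewer libraries.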
